A study of Drosophila melanogaster with 2 samples.

Results

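Binding of E(var)3-9-GFP was examined at the small nucleolar RNA (snoRNA) genes of Drosophila melanogaster and at the genes that host them. The members were defined by annotation, and were chosen with earlier results of these data known. They were the 269 genes of biotype snoRNA on the 6 arms 2L, 2R, 3L, 3R, 4 and X in the Ensembl annotation, and the 95 genes on the same strand whose span holds at least 1 of them. These 364 genes are part of 18164 annotated genes on those arms. Of the 269 snoRNA genes, 235 lay in 1 host, 12 in 2 overlapping hosts and 22 in none.

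The assay was chromatin immunoprecipitation followed by sequencing (ChIP-seq), in which chromatin is sheared and the DNA bound by a tagged protein is recovered with an antibody. The gene E(var)3-9 takes its name from mutations that enhance variegation, in which a gene moved next to heterochromatin is silenced in some cells and not in others. All material came from 1 transgenic line that stably carries GFP joined to the C-terminus of E(var)3-9, and an anti-GFP antibody was used. The labels also name E(var)3-9 itself in the antibody field. The only group held 2 biological replicates, numbered 2 and 3, of whole embryos of pooled sex collected at 0 to 24 h, with sonicated fragments of 200 to 800 bp. There was no other genotype, treatment or age, so the comparisons are between kinds of genes within these embryos. Whole embryos mix all cell types, and fewer cells with a bound site cannot be told apart from weaker binding in each cell.

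A snoRNA pairs with ribosomal or spliceosomal RNA and guides a protein complex, the snoRNP, to the base to be modified. Box C/D snoRNAs guide methylation of the ribose by fibrillarin, and box H/ACA snoRNAs guide the change of uridine to pseudouridine by dyskerin, which flies call Nop60B. Most fly snoRNAs have no promoter of their own: they are cut from introns of a host transcript, often that of a ribosomal protein gene or of a Uhg gene, a noncoding host whose introns carry the snoRNAs. For this reason the start of the snoRNA gene and the transcription start site (TSS) of its host are separate places at which binding can be looked for.

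By name, 109 of the snoRNA genes were box C/D, 114 box H/ACA and 16 scaRNAs, which act in Cajal bodies, and 30 could not be classed. Their median length was 134 bp, with a range of 46 to 316 bp. Of the 247 with a host, 229 lay wholly in introns, 14 in an intron or an exon depending on the transcript and 4 in exons. Sequences were read from the dm6 genome (Release 6). Shown first are 3 snoRNA genes with a summit of a reproducible peak within 500 bp, and 3 from the largest cluster, in introns of Arpc2. In a box C/D gene the capitals mark the C box letters TGATGA and the D box letters CTGA, and in a box H/ACA gene they mark the ACA that stands 3 bases before the end.
snoRNA:Me28S-A774b, 3L:13023580-13023652, plus strand, box C/D, in RpS12: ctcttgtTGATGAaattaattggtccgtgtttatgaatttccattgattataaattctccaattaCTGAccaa
snoRNA:Psi18S-920, 3L:11822984-11823124, plus strand, box H/ACA, in RpL10Ab: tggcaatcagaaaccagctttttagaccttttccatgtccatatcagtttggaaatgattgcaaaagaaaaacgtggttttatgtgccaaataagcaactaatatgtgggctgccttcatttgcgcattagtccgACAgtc
snoRNA:Psi18S-1275, 3R:9778398-9778537, plus strand, box H/ACA, in RpS29: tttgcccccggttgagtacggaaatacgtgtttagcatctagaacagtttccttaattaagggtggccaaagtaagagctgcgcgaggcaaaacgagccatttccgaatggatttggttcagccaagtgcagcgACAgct
snoRNA:Psi18S-525a, 2L:20418348-20418481, plus strand, box H/ACA, in Arpc2: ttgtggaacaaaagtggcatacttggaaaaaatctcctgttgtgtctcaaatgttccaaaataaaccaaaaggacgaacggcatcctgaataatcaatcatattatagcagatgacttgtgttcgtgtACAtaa
snoRNA:Psi18S-525g, 2L:20419932-20420065, plus strand, box H/ACA, in Arpc2: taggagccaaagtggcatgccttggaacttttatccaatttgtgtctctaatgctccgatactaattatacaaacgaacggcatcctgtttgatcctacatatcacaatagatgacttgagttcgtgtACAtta
snoRNA:Psi18S-640a, 2L:20418523-20418654, plus strand, box H/ACA, in Arpc2: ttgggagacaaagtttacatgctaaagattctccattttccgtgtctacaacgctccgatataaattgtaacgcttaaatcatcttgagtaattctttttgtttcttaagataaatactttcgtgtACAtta
TGATGA followed by CTGA was found in 82 of 109 box C/D genes (75.2%), and ACA at 3 bases before the end in 106 of 114 box H/ACA genes (93.0%), so the classes taken from names largely matched the letters of the boxes.

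The second set of sequences is the 120 bases before the TSS of 6 ribosomal protein hosts in which the summit of binding fell inside those bases. Capitals mark the DNA replication-related element TATCGATA (DRE) in RpL28, TATAAA in RpS3A and the E-box CAGCTG in RpS4. The other 3 held none of the letters searched within these bases.
RpL28, 3L:3222961-3223080, minus strand: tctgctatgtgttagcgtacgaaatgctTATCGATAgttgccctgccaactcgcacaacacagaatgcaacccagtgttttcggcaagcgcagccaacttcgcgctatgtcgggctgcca
RpS3A, 4:67208-67327, minus strand: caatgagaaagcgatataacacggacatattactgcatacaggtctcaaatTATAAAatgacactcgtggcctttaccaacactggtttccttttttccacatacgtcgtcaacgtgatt
RpL14, 3L:8600886-8601005, plus strand: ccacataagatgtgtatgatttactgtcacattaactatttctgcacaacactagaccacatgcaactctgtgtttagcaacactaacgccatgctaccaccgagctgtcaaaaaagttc
RpS5a, X:17148265-17148384, minus strand: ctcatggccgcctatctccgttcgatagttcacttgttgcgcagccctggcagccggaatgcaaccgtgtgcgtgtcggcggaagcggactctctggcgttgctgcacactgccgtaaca
RpL23A, 3L:1668655-1668774, minus strand: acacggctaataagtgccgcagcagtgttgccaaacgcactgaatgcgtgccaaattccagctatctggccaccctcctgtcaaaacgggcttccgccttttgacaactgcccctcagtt
RpS4, 3L:13041636-13041755, plus strand: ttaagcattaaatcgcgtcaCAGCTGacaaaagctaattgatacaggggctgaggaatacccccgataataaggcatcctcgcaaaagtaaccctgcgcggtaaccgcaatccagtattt
The summit lay 88 bp before the TSS of RpL28, 83 bp before that of RpS3A, 39 bp before that of RpL14, 65 bp before that of RpS5a, 89 bp before that of RpL23A and 86 bp before that of RpS4.

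The measurements are lists of bound regions in assembly dm6. Each replicate has a list of 30000 regions, both replicates together a joint list of 24963 regions, and 3438 joint regions passed the submitters' test of irreproducible discovery rate (IDR) and are called IDR peaks here. The IDR peaks were exactly the 3438 strongest joint regions, so passing was a limit on joint signal. A region has a summit, its highest point, and a signal value, a score without a stated scale. The complete lists reach far down: the median signal was 89.3 among IDR peaks and 24.9 in the joint list. The depth in reads is unknown, so Wilson 95% intervals of shares cover counting of genes only. A gene was called occupied where an IDR summit lay within 500 bp of a TSS.

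Binding was found at the promoters of the hosts and rarely at the snoRNA genes. Of 95 hosts, 46 were occupied (48.4%, interval 38.6% to 58.3%), by 46 different regions. Among all protein-coding genes 16.5% were occupied, and among all noncoding RNA genes 4.85%. Of 269 snoRNA genes, 8 had their own start no more than 500 bp from such a summit (2.97%, interval 1.51% to 5.76%), against 12.3% of the starts of all other genes. Those other starts are the 5′ ends of genes, whereas most snoRNA starts lie inside introns, so unlike places are compared. Through their hosts, however, 147 of the 247 hosted snoRNA genes (59.5%) belonged to a gene with an occupied promoter. As snoRNA genes in the same host share its promoter, this count repeats the 46 occupied hosts. No share over other genes was counted beside it.

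Each replicate gave nearly the same share of hosts when its 3438 strongest regions were used. In replicate 2, 42 hosts (44.2%) had such a region, against 16.4% of protein-coding and 4.97% of noncoding genes. In replicate 3, 40 hosts (42.1%) had one, against 15.4% and 4.45%. The mean over the replicates was 43.2% ± 1.49 (SD, n = 2). Of the snoRNA starts, 2.60% were near such a region of replicate 2 and 3.35% near one of replicate 3, against 12.3% and 11.4% of other starts. Protein-coding hosts had a median of 2 annotated TSSs and all protein-coding genes a median of 1, which gives hosts more places to be counted. With the outermost 5′ end alone, 41 of 95 hosts were occupied, against 14.6% of protein-coding genes.

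**Figure D1:**
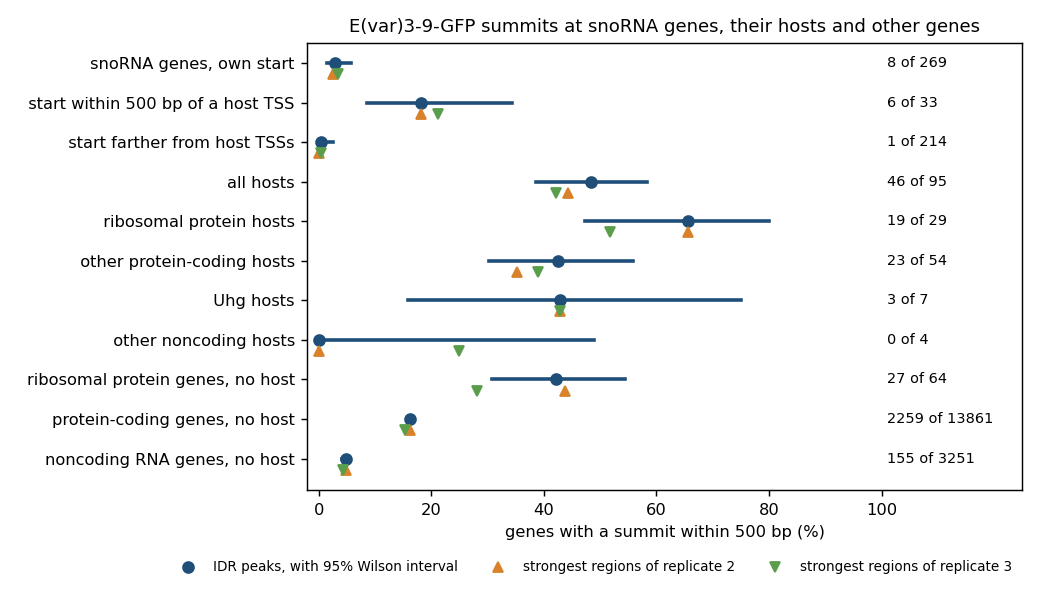
Share of genes (x axis, %) with a summit within 500 bp, by kind of gene (y axis). Circles show IDR peaks with 95% Wilson intervals, triangles the 3438 strongest regions of replicate 2 (up) and replicate 3 (down), and the counts on the right belong to the IDR peaks; hosts stand at 48.4% and snoRNA starts at 2.97%.

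The hosts differ in what they encode. Ribosomal protein hosts were occupied in 19 of 29 cases (65.5%, interval 47.3% to 80.1%). Ribosomal protein genes that host no snoRNA were occupied in 27 of 64 (42.2%, interval 30.9% to 54.4%). These intervals overlap, but overlap of intervals does not decide whether groups differ, and the difference was not tested. Other protein-coding hosts were occupied in 23 of 54 cases (42.6%, interval 30.3% to 55.8%), a share close to that of ribosomal protein genes without a snoRNA. Of 11 noncoding hosts 3 were occupied (27.3%, interval 9.75% to 56.6%), and all 3 were Uhg genes. Hosts with 1 snoRNA gene were occupied in 21 of 56 cases (37.5%, interval 26.0% to 50.6%) and hosts with 2 or more in 25 of 39 (64.1%, interval 48.4% to 77.3%); the intervals overlap and the difference was not tested. By class of snoRNA, the host was occupied for 62 of 101 box C/D genes, 68 of 105 box H/ACA genes, 6 of 14 scaRNA genes and 11 of 27 that could not be classed. Genes in the same host share its promoter, so these counts are not independent.

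Both replicates had strong regions at ribosomal protein hosts, in different numbers. Among them, 65.5% had one of the strongest regions of replicate 2 and 51.7% one of replicate 3, a mean of 58.6% ± 9.75 (SD, n = 2). For other protein-coding hosts the shares were 35.2% and 38.9%, a mean of 37.0% ± 2.62 (SD, n = 2). In the complete lists the replicates differed more widely: 83 hosts (87.4%) had a region in replicate 2, among them all 29 ribosomal protein hosts, and 62 (65.3%) in replicate 3. The background differed in the same direction, with 50.8% of protein-coding and 28.3% of noncoding genes in replicate 2 and 37.3% and 25.4% in replicate 3. In the joint list 74 hosts (77.9%) had a region, against 42.4% of protein-coding and 24.4% of noncoding genes. Ribosomal protein genes that host no snoRNA had one in 81.25% of cases. Their shares in the complete lists were 84.4% in replicate 2 and 57.8% in replicate 3.

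Among occupied genes, which all stand above the IDR limit, hosts and other genes had similar signals. The median joint signal of the strongest IDR peak at hosts was 96.7, with a range of 60.98 to 362, and that of all occupied protein-coding genes was 101.2. In the complete lists, where weaker regions count too, the medians of hosts with a region were higher. In the joint list the median was 70.5 at 74 hosts and 43.99 at protein-coding genes. In replicate 2 it was 35.2 and 22.6, and in replicate 3 it was 36.1 and 19.7. Ribosomal protein genes that host no snoRNA had medians of 61.3 in the joint list, 36.1 in replicate 2 and 23.1 in replicate 3. Hosts thus stood above these genes in the joint list and replicate 3, but not in replicate 2. Among IDR peaks, ribosomal protein hosts had a median of 85.5 and other protein-coding hosts 101.9. In the joint list these medians were 70.1 and 69.97. They were 44.1 and 33.9 in replicate 2 and 38.4 and 34.6 in replicate 3. The strongest ribosomal protein host, RpL14, had 188.

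Of the 46 occupied hosts, 42 also had a region within 500 bp in both complete replicate lists. Fib, RpL13A and RpL30 had one in replicate 2 alone, and dom in neither. Of the 46, 31 had a region among the strongest 3438 of both replicates. The value of each list is that of its strongest region within 500 bp of a TSS, which need not be the same region in every list. At 7 hosts a replicate's value came from a summit more than 100 bp from the IDR summit: RpS12, Tudor-SN, CG12316, Fib, RpL10Ab, RpL27A and gcl. Where both replicates had a region, the signal was higher in replicate 2 at 30 hosts of 42. With regions no more than 100 bp from the IDR summit, a distance chosen after seeing the data, it was higher in replicate 2 at 30 of 39. By rank within each list, 19 stood higher in replicate 2 and 23 in replicate 3, so neither replicate placed the hosts higher throughout.

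The strongest host peak lay at Msp300, which encodes a giant nesprin of the nuclear envelope and muscle and holds 1 snoRNA gene. For Msp300 the joint list gave 362, with 186 in replicate 2 and 175 in replicate 3. The snoRNA gene in it, Psi18S-525k, carries the same family name as 10 genes in Arpc2 and starts 50634 bp downstream of the nearest Msp300 TSS before it, with no summit of any list within 500 bp. The peak itself lay 342 bp before another Msp300 TSS, still farther upstream of that snoRNA gene. CG1142 followed with 1 snoRNA gene. At CG1142 the region scored 242 jointly, 155 in replicate 2 and 92.3 in replicate 3. Stt3A, a subunit of the enzyme that transfers sugar chains to proteins, holds 3. Stt3A had 227 in the joint list, 133 in replicate 2 and 89.2 in replicate 3. The summit at Stt3A lay 392 bp before its TSS and only 217 bp from the TSS of bves, so the peak cannot be assigned to one gene of this pair.

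**Figure D2:**
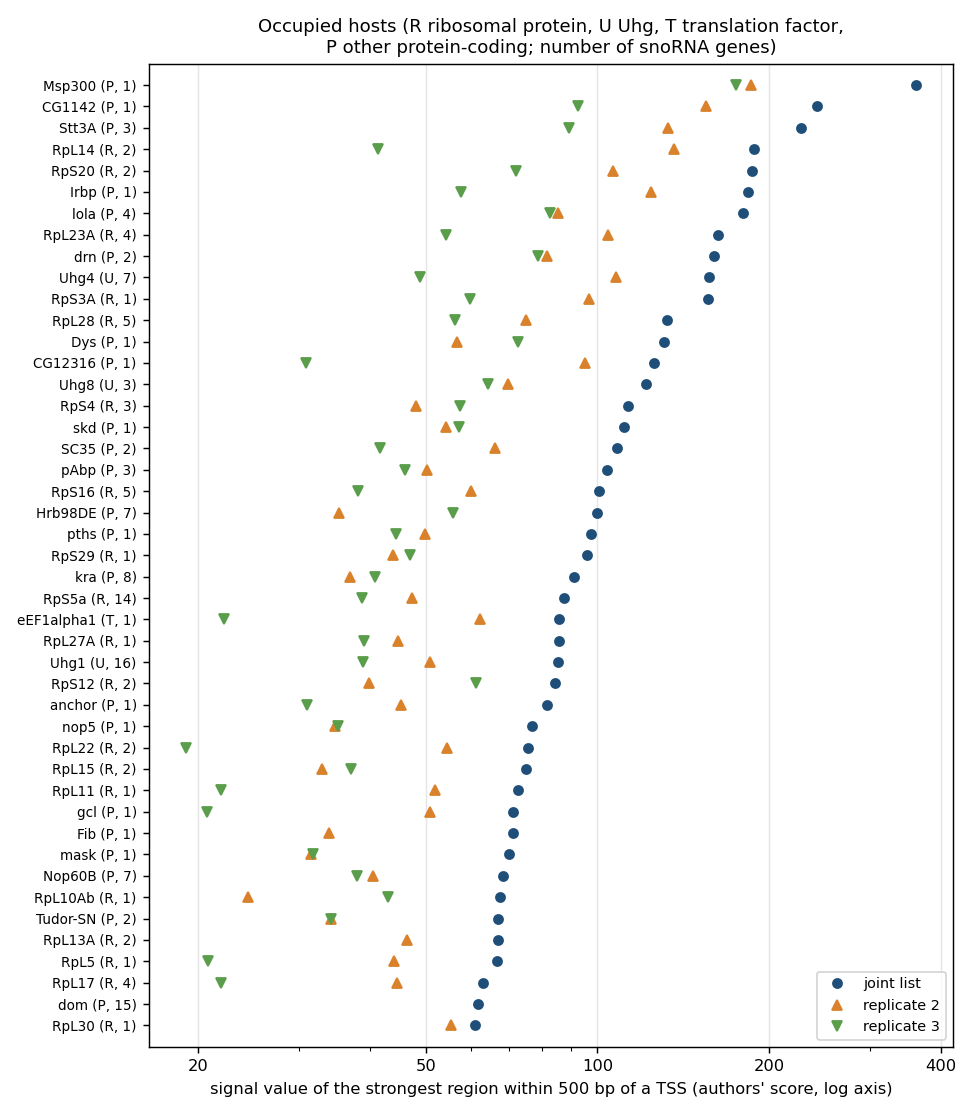
Signal value (x axis, log scale, score without unit) of the strongest region within 500 bp of a TSS at 45 of the 46 occupied hosts (y axis, ordered by joint signal; letter for the class and number of snoRNA genes in brackets). Circles are the joint list and triangles the replicates; Msp300 stands at the top with 362, and a missing triangle means that the replicate's list held no summit within 500 bp.

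Ribosomal protein hosts made up 5 of the 12 strongest. For RpL14 the joint list gave 188, with 136 in replicate 2 and 41.3 in replicate 3. This gene of the large subunit shares its start region with Nelf-E, whose TSS lay 88 bp from the summit. RpS20 of the small subunit has CG17271 as a neighbour, whose TSS was nearer the summit. At RpS20 the region scored 187 jointly, 106 in replicate 2 and 72.1 in replicate 3. RpL23A had 163 in the joint list, 104 in replicate 2 and 54.2 in replicate 3. RpL23A holds 4 snoRNA genes and had no TSS of another gene, snoRNA genes aside, within 1000 bp of the summit. RpS3A is the only host on chromosome 4. For RpS3A the joint list gave 156, with 96.8 in replicate 2 and 59.8 in replicate 3. At RpL28 the region scored 132 jointly, 74.96 in replicate 2 and 56.2 in replicate 3. RpL28 holds 5 snoRNA genes. At all 5 genes the value of replicate 2 was above that of replicate 3, by the most at RpL14.

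Further down the order either replicate could be the higher one. RpS4 had 113 in the joint list, 48.1 in replicate 2 and 57.4 in replicate 3. For RpS16 the joint list gave 101, with 60.1 in replicate 2 and 37.99 in replicate 3. At RpS29 the region scored 96.05 jointly, 43.9 in replicate 2 and 46.9 in replicate 3. RpS4 and RpS29 were higher in replicate 3 and RpS16 in replicate 2. RpS5a had 87.4 in the joint list, 47.3 in replicate 2 and 38.7 in replicate 3. RpS5a carries 14 snoRNA genes, the most of any ribosomal protein host, among them 6 copies of Psi28S-1135. For RpL27A the joint list gave 85.5, with 44.7 in replicate 2; the region of 39.1 in replicate 3 lay 200 bp from the IDR summit. RpS12 had its strongest joint region at 84.3, with 61.1 in replicate 3 and none in replicate 2 within 100 bp of that summit. The strongest region of replicate 2 at RpS12, of 39.7, lay 212 bp away, at a second joint region. The values of the replicates at RpS12 and RpL27A thus belong to different summits.

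Among the other protein-coding hosts, Irbp encodes the fly Ku70 subunit, which binds broken DNA ends. Irbp had 184 in the joint list, 124 in replicate 2 and 57.7 in replicate 3. lola encodes a family of BTB transcription factors and holds 4 snoRNA genes. For lola the joint list gave 180.2, with 85.3 in replicate 2 and 82.7 in replicate 3. The next, drn, holds 2. At drn the region scored 159.8 jointly, 81.5 in replicate 2 and 78.6 in replicate 3. lola and drn had almost equal values in the replicates, while Irbp stood higher in replicate 2. Dys encodes dystrophin, a link of the muscle cytoskeleton to the membrane. Dys had 131 in the joint list, 56.7 in replicate 2 and 72.6 in replicate 3. For CG12316 the joint list gave 125, with 94.99 in replicate 2 and, within 100 bp of the IDR summit, 28.4 in replicate 3. A region of 30.9 in replicate 3 lay 216 bp from it, so CG12316 was uneven between the replicates with either. skd encodes a Mediator subunit, and its summit lay only 95 bp from the TSS of Pdss2. At skd the region scored 111 jointly, 54.2 in replicate 2 and 57.2 in replicate 3.

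SC35 encodes a splicing factor of the SR family, with the TSS of eRF3 at 117 bp from the summit. SC35 had 108 in the joint list, 66.2 in replicate 2 and 41.6 in replicate 3. pAbp encodes the poly(A)-binding protein of messenger RNA. For pAbp the joint list gave 104, with 50.4 in replicate 2 and 45.98 in replicate 3. Its summit was 1 of only 2 that lay downstream of the TSS, at 477 bp. Hrb98DE encodes an RNA-binding protein of the hnRNP A family and holds 7 snoRNA genes. Hrb98DE had 99.7 in the joint list, 35.2 in replicate 2 and 55.9 in replicate 3. For pths the joint list gave 97.3, with 49.97 in replicate 2 and 44.3 in replicate 3. At Hrb98DE replicate 3 was clearly higher, and at pths the replicates were close. kra, named krasavietz, acts in translation and holds 8 snoRNA genes. At kra the region scored 90.8 jointly, 36.8 in replicate 2 and 40.8 in replicate 3. eEF1alpha1 encodes the elongation factor that brings transfer RNA to the ribosome. eEF1alpha1 had 85.7 in the joint list, 62.3 in replicate 2 and 22.2 in replicate 3. Its value in replicate 2 was far above that in replicate 3.

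The 7 Uhg hosts, which encode no protein and are known for their snoRNAs alone, were divided. For Uhg4 the joint list gave 157, with 108 in replicate 2 and 48.97 in replicate 3. Uhg4 holds 7 snoRNA genes. At Uhg8 the region scored 121.6 jointly, 69.7 in replicate 2 and 64.2 in replicate 3. At Uhg8, with 3 snoRNA genes, the TSS of CG5199 was nearer the summit. Uhg1 had 85.3 in the joint list, 50.9 in replicate 2 and 38.8 in replicate 3. Uhg1 holds 16 snoRNA genes, the second largest number. These 3 were occupied and present in both replicates. Uhg5, with 11 snoRNA genes, had a joint region of 24.7 and a replicate 2 region of 27.3 but none in replicate 3. Uhg2 with 4 had a joint region of 37.1, 25.9 in replicate 2 and 11.1 in replicate 3. Uhg3 with 3 had a region of 11.7 in replicate 3 alone, and Uhg7 with 4 had none in any list. The same 4 snoRNA genes also lie in the overlapping host RpL23A, which was occupied. The Uhg hosts thus ran from a peak of 157 to no region at all.

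Occupied hosts with 2 or more snoRNA genes had a median joint signal of 100.8, with a range of 61.7 to 227, and those with 1 had a median of 85.7, with a range of 60.98 to 362. The ranges overlap over most of their length, and the difference was not tested. In the complete lists the medians were 84.3 and 66.6 jointly, 44.6 and 29.3 in replicate 2 and 39.8 and 30.9 in replicate 3. The hosts with more snoRNA genes had the higher median in each list. The 10 richest hosts hold 111 snoRNA genes, and the richest of them was not occupied. Arpc2, a subunit of the actin-branching Arp2/3 complex, carries 17 box H/ACA genes: 10 of the Psi18S-525 family and 7 of the Psi18S-640 family, named for bases of 18S ribosomal RNA. Its promoter had a joint region of 47.8, ranked 4522, with 23.0 in replicate 2 and 20.1 in replicate 3. Sf3b3, a splicing factor subunit with 9 snoRNA genes, had a joint region of 42.9 and 21.5 in replicate 2, with none in replicate 3. RpS7, with 7, had 55.4 in the joint list, 25.3 in replicate 2 and 25.1 in replicate 3. These 3 hosts and Uhg5 have regions below the IDR limit, which lay at a joint signal of 58.2.

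The other 6 of the richest hosts were occupied: Uhg1, dom, RpS5a, kra, Hrb98DE and Nop60B. Uhg4 ties at 7 snoRNA genes with Hrb98DE, Nop60B and RpS7. dom encodes the ATPase of a remodelling complex that exchanges histone variants, and holds 15. Its joint signal was 61.7, near the limit, at 479 bp downstream of the TSS. The replicates had regions of 38.3 at 514 bp and 21.0 at 529 bp, just beyond the 500 bp allowed. Presence of dom in the replicate lists therefore rested on the distance chosen.

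**Figure D3:**
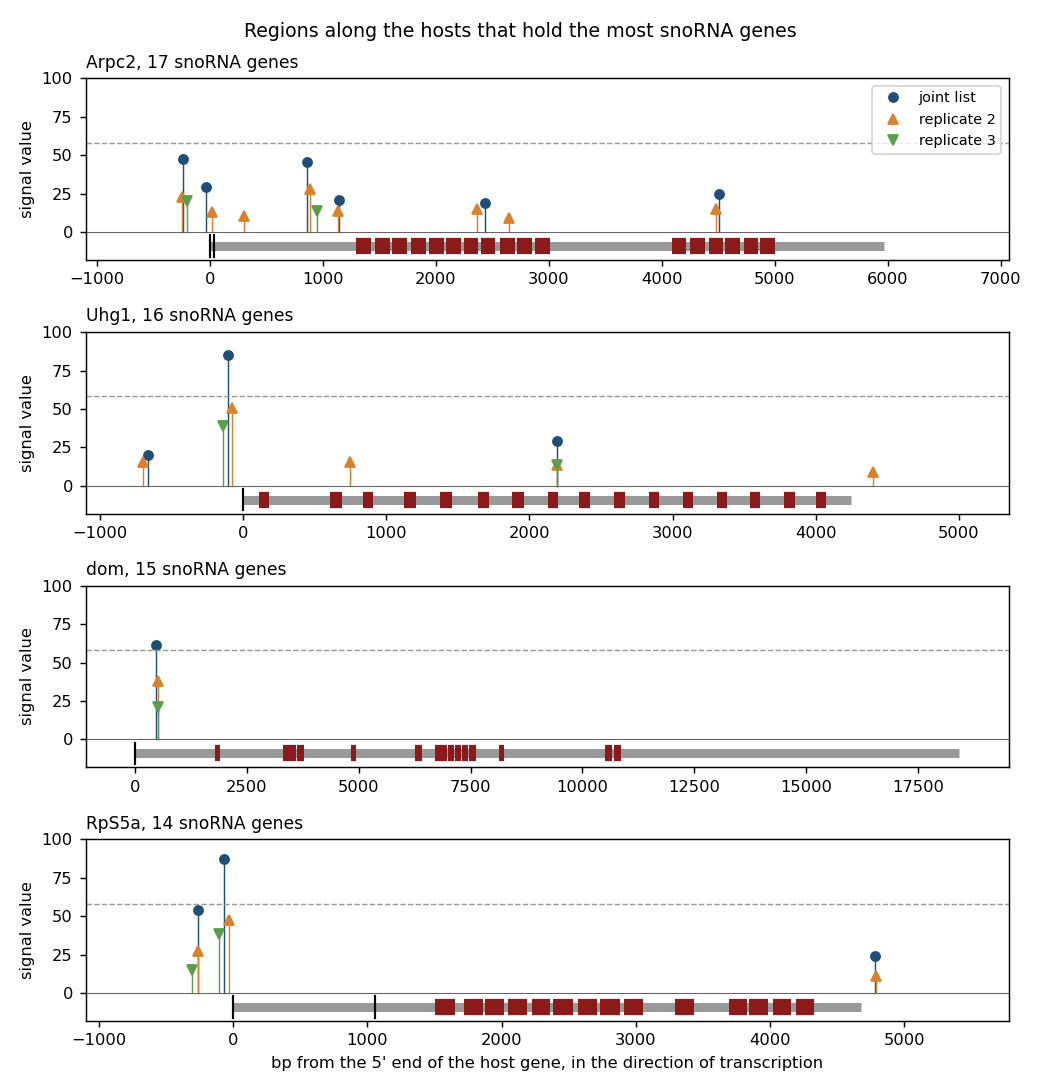
Regions along the 4 hosts with the most snoRNA genes. The x axis is bp from the 5′ end of the host in the direction of transcription; the y axis is the signal value at each summit in the joint list (circles) and the replicates (triangles); the grey bar is the gene, dark red blocks are snoRNA genes, black lines are TSSs and the dashed line is the lowest signal of an IDR peak. Peaks above the line stand at the promoters of Uhg1 and RpS5a and at 479 bp in dom, none stands over the snoRNA genes.

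Summits at hosts lay just upstream of the TSS. Of 46, 44 were upstream, with a median position of 111 bp before the TSS and extremes of 392 bp before and 479 bp after. At protein-coding genes that host no snoRNA the median was 151 bp before the TSS and 91.1% were upstream. A summit within 100 bp of the TSS was found at 19 hosts (41.3%) and at 23.9% of the other protein-coding genes. Among the ribosomal protein hosts it was 12 of 19 (63.2%), with a median of 88 bp before the TSS, and among other protein-coding hosts 7 of 23 (30.4%), with a median of 159 bp.

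Neighbouring genes limit the assignment of peaks. With snoRNA genes left aside, at 25 of the 46 hosts another gene had a TSS within 500 bp of the summit, and at 10 that TSS was nearer than the host's own. Without these 10, 36 hosts remained. The same counts were not made over all occupied protein-coding genes, so hosts cannot be compared with them in this respect. Among the 10 were Stt3A, RpS20, Uhg8, skd, SC35, anchor, RpL22, Fib and RpL10Ab.

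The hosts just outside the limits show how the count is bounded. By distance, tou had an IDR summit at 555 bp before its TSS with a signal of 269, CG3902 at 633 bp before and hts at 842 bp after. By signal, RpL30 at 60.98 was the weakest occupied host, and Usp10 at 56.2 and RpS7 at 55.4 were the strongest without an IDR peak at a TSS. RpS6 and the pseudogene CR33222 share 1 region of 55.4. Of the 49 unoccupied hosts, 28 had a weaker joint region, 13 a region in a replicate list alone and 8 none in any list. The 3 strongest of the 13 were bur with 18.5 in replicate 2, Arf1 with 17.7 in replicate 2 and 10.8 in replicate 3, and Edc3 with 14.7 in replicate 2.

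The snoRNA genes themselves were near an IDR summit mainly where they begin close to the TSS of their host. The distance from the nearest upstream host TSS to the snoRNA start had a median of 1465 bp. Of 33 that begin within 500 bp downstream of a host TSS, 6 were near an IDR summit (18.2%, interval 8.61% to 34.4%). Of 214 farther away, 1 had one (0.467%, interval up to 2.60%). The first group lies near a promoter by construction. The second lies out of reach of any summit upstream of the nearest host TSS before it, where most host summits lay. The split itself therefore fixes part of the difference.

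Of the 8 snoRNA genes with an IDR summit, 6 had it at the promoter of the host. The pseudouridine guide snoRNA:Psi28S-2949 starts 99 bp from the TSS of Uhg4 and had its region at 157 in the joint list, 108 in replicate 2 and 48.97 in replicate 3. The methylation guide snoRNA:Me28S-G3081a lies in an intron of Uhg1, 111 bp from the TSS, with 85.3, 50.9 and 38.8. Both are the host peaks given above. The other 4 lay in ribosomal protein hosts: snoRNA:Psi18S-1275 in RpS29 (96.05, 43.9 and 46.9), snoRNA:Me18S-G1358c in RpL15 (75.04, 32.9 and 37.1), snoRNA:Me28S-A774b in RpS12 (71.5, 39.7 and 35.3) and snoRNA:Psi18S-920 in RpL10Ab (67.5 jointly and 43.04 in replicate 3). Replicate 2 had no region within 100 bp of the summit at RpL10Ab, and its region of 24.4 lay 265 bp away. At RpS12 this is a second, weaker region beside the one of 84.3. In all 6 the summit was upstream of the snoRNA start, by 192 to 437 bp, on the side of the host TSS.

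The remaining 2 were away from every host TSS. snoRNA:Or-ACA6, an orphan with no known target, has no host; a region of 93.5 in the joint list, 50.9 in replicate 2 and 39.5 in replicate 3 lay 431 bp upstream of it. The start of another snoRNA gene without a host, snoRNA:Or-CD13, was 566 bp from the summit, and the nearest TSS of a gene that is no snoRNA gene, egr, was 3390 bp from it. snoRNA:Or-CD4 in Uhg5 had a region of 58.9, 34.1 and 25.2 at 384 bp downstream of its start, 3036 bp from the TSS of Uhg5 and beyond its 3′ end. Both regions were in both replicates, and the weaker lay just above the IDR limit.

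**Figure D4:**
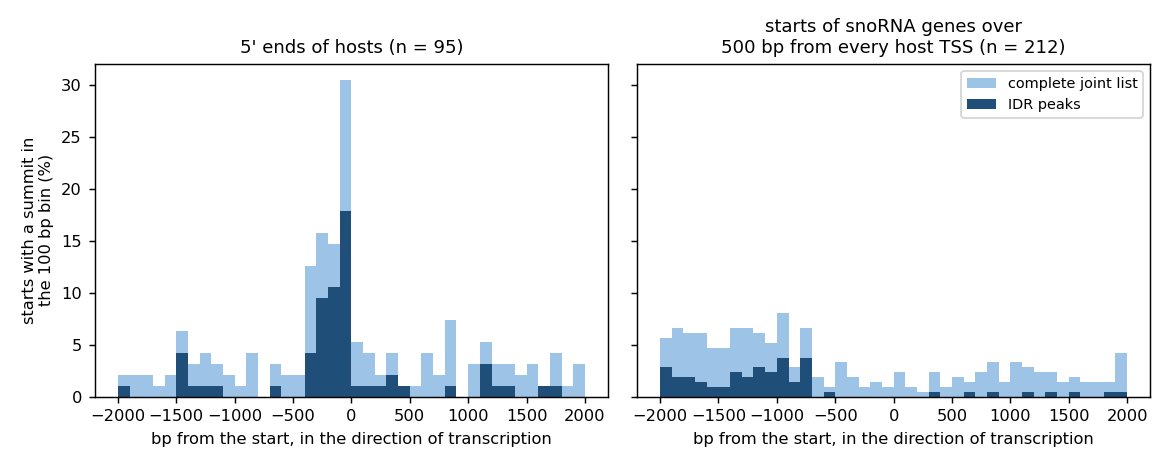
Share of starts (y axis, %) with a summit in each 100 bp bin (x axis, bp from the start in the direction of transcription), for the 5′ ends of 95 hosts on the left and for the 212 snoRNA starts more than 500 bp from every host TSS on the right; light bars are the joint list and dark bars the IDR peaks. Host 5′ ends show a peak in the 400 bp before the start. Around these snoRNA starts IDR peaks are near 0 within 500 bp and stand farther upstream, where the host promoters lie. The choice of these starts keeps summits upstream of a preceding host TSS outside 500 bp.

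Weaker regions near snoRNA genes were more numerous than IDR peaks and differed between replicates. In the joint list 52 snoRNA genes (19.3%) had a summit within 500 bp of their start, against 35.5% of the starts of all other genes. Replicate 2 had 82 (30.5%), against 43.5%, and replicate 3 had 24 (8.92%), against 31.4%. The snoRNA genes were below the other starts in every list. The places are unlike, because the other starts are the 5′ ends of genes and 229 of the 247 hosted snoRNA genes lie in introns. The lower share is therefore no measure of avoidance of snoRNA genes. Of the 52, 14 shared the region with a host promoter, and the 38 others lay away from it; as clustered genes share regions, the 52 correspond to 36 regions. In Arpc2, 16 of its 17 snoRNA genes lay near joint regions of 19.1 to 45.8, and replicate 2 had matching regions of 13.6 to 28.3. A further region of replicate 2, of 9.48, had no joint summit beside it. Replicate 3 had a single region there, of 13.9, 341 bp before snoRNA:Psi18S-525a. In Uhg1 the joint list and both replicates had a summit at 2194 bp from the 5′ end, inside snoRNA:U27:54Ea. Its signal was 29.1 jointly, below the IDR limit, 13.3 in replicate 2 and 13.8 in replicate 3.

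Inside host genes, away from promoters, the snoRNA neighbourhoods held few summits. Over bases more than 500 bp from any host TSS, no IDR summit inside a host span lay within 500 bp of a snoRNA start in 111 kb, and 15 lay elsewhere in the 772 kb of host spans. The joint list had 9.88 summits per 100 kb near snoRNA starts and 20.1 elsewhere, replicate 2 had 20.7 and 29.3, and replicate 3 had 5.39 and 21.8. Long hosts held many of the summits elsewhere. Of those in the joint list, Rbfox1 held 36 and Dys 29. In the 78 hosts of up to 10 kb, the joint list had 10.7 per 100 kb near snoRNA starts and 9.17 elsewhere, replicate 2 had 21.4 and 25.5, and replicate 3 had 3.57 and 7.13, with no IDR summit in either part. In these shorter hosts the joint list had 9 summits in each part, while both replicates kept the lower density near snoRNA starts, on 18 and 25 summits in replicate 2 and 3 and 7 in replicate 3.

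Counted gene by gene, 16 IDR summits lay inside hosts away from their own TSSs, in 10 hosts. tou, a chromatin protein gene, held 4, kis, which encodes a chromatin remodeller, 3, and drn 2. Usp10, Dys, Msp300, Rbfox1, hts, skd and x16 held 1 each, and that in x16 lay at the promoter of the neighbouring host nop5.

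Copies of a snoRNA in one host resemble each other, which bears on where short reads can be placed. Identity between the 10 copies of Psi18S-525 in Arpc2 ran from 65.0% to 90.4%, and between the 6 copies of Psi28S-1135 in RpS5a from 63.8% to 99.3%. Of the stretches of 32 bases in a snoRNA gene, a mean of 93.1% occurred once in the genome, and 8 of 269 genes were under 50%. In the 500 bp on either side of the start, at least 90% of stretches were unique at 253 of 269 snoRNA genes and at 95 of 95 hosts. Among protein-coding genes that host no snoRNA this held at 13271 of 13861. The mean share of unique stretches was 97.3% around snoRNA starts and 97.3% around the starts of these protein-coding genes. The treatment of reads with several matches is not described in the labels or files, and the part of repeated sequence in the low share at snoRNA genes was not tested.

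The proteins of the snoRNPs were examined as the other part of the pathway, from a list of 20 genes, all of which were found. Of them 6 were occupied (30%, interval 14.5% to 51.9%), against 16.5% of protein-coding genes. The interval includes that background. Where no TSS of another gene was allowed nearer the summit, a rule chosen after seeing the data, 4 remained, without Fib. No background was counted under that rule. Of the 4 core box C/D proteins 2 were occupied, Fib, the methyltransferase fibrillarin, and nop5, another core protein of these particles. Fib had 71.03 in the joint list. Its regions in replicate 2 included one of 33.9 at 131 bp from the IDR summit and a weaker one of 12.4 within 100 bp of it, and replicate 3 had none. At nop5 the region scored 76.7 jointly, 34.6 in replicate 2 and 35.1 in replicate 3. Of the 4 core box H/ACA proteins 2 were occupied, Nop60B, the pseudouridine synthase, and NHP2, which binds the guide RNA. Nop60B had 68.3 in the joint list, 40.4 in replicate 2 and 37.9 in replicate 3. For NHP2 the joint list gave 111, with 66.1 in replicate 2 and 44.02 in replicate 3. Of 12 assembly and transport factors 2 were occupied. pont encodes Pontin, an ATPase of the assembly machinery. At pont the region scored 220.1 jointly, 122.1 in replicate 2 and 96.5 in replicate 3. Nopp140 encodes a nucleolar and Cajal body chaperone of snoRNPs. Nopp140 had 87.6 in the joint list, 42.9 in replicate 2 and 40.1 in replicate 3. Fib, nop5 and Nop60B are themselves hosts, Nop60B of 7 snoRNA genes and the other 2 of 1 each, so they are counted in both lists.

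The letters of known promoter elements were searched in the 250 bases before and 50 after the 5′ end of each gene, on both strands. None of the strings searched contains another. DRE (TATCGATA), bound in flies by the factor Dref, was found in 19 of 95 hosts (20%), in 8 of 46 occupied hosts (17.4%) and in 11 of 49 unoccupied ones (22.4%). All protein-coding genes held it in 9.36% and occupied ones in 13.9%. Among ribosomal protein hosts 8 of 29 had it (27.6%) and among ribosomal protein genes that host no snoRNA 31.2%. The share was no higher among occupied hosts than among the others. At the 7 hosts with DRE and an IDR summit within 500 bp of the 5′ end, the summit lay on the letters at RpL28 and 51 bp away at RpS29, and the median distance was 184 bp, compared with 110 bp at 294 other protein-coding genes.

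The remaining letters gave shares as follows. GGTCACACT (motif 1) was in 8 of 95 hosts, against 6.05% of protein-coding genes. GAGAGAG was in 2, against 5.87%, CAGCTG in 9 (9.47%), against 17.7%, and TATAAA in 44 (46.3%), against 45.8%. TCTTT on the sense strand within 10 bp of the 5′ end, the core of the TCT initiator that many ribosomal protein genes carry, was in 9 of 29 ribosomal protein hosts (31.03%), 31.2% of the other ribosomal protein genes and 2.12% of protein-coding genes. TATAAA was in 6 of 7 Uhg hosts. The base composition at host summits was 63.7% A and T over 100 bp on either side, and 66.7% at all IDR summits.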

How the data were processed

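Regions bound by E(var)3-9-GFP were taken in assembly dm6 from 2 biological replicates of 1 group. The signal value is a score that the authors' caller gave each region in the deposited lists, and regions were ranked by it. No result rests on the deposited −log10 q-value. Not given in the sources used here were aligner, caller and IDR threshold. The read depth is unknown, and the control library is not analysed here.

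Genes came from Ensembl release 115. A summit (column for the region's start plus the deposited offset) was near a gene within 500 bp of the snoRNA start or of any host TSS. The classes of snoRNA were read from gene names. The members and lists were chosen with earlier results of these data known. Named are snoRNA genes with an IDR summit, the 30 hosts with the strongest peaks, the 10 holding most snoRNA genes, the Uhg hosts, occupied snoRNP genes and the 3 strongest hosts found in a replicate list alone. Of these, 1 host is not reported here. Genes named as neighbours or near a limit were chosen after their values were seen. With 1 group and 2 replicates no test was run. Promoter sequences were read from the genome at Ensembl 5′ ends, because no table of promoters was used here. Uniqueness was counted over stretches of 32 bases on both strands. The functions for hosts, distances and intervals were checked on simulated data. Alternatives were other distances, the 860 strongest IDR peaks, the joint list, each replicate alone, overlap in place of summits, single TSSs and other definitions of a host. Python 3.11.15 was used with numpy 2.4.6, Biopython 1.88 and matplotlib 3.10.9.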

Additional observations from a re-analysis of the deposited data

How the results depend on the processing

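Of 70 values under alternatives, 51 stayed within 1.5 times the main count or, for the median signal, within the SD between replicates (7.53). The count of occupied hosts was 36 at 250 bp and 49 at 1000 bp, and 40 and 42 when replicate 2 or replicate 3 was left out. Among protein-coding genes 15.4% were occupied without replicate 2 and 16.4% without replicate 3. Shares over all genes were not counted at 250 or 1000 bp, with overlap or with the 860 strongest IDR peaks. The counts under those settings therefore cannot be compared with other genes. The count of snoRNA starts depended on the distance, with 4 at 250 bp, 38 at 1000 bp, where host promoters come within reach, and 16 when the region needed only to overlap the window. With the 860 strongest IDR peaks the counts fell to 1 snoRNA start, 13 hosts, 34 snoRNA genes by host, 1 snoRNP gene, 5 ribosomal protein hosts and 1 noncoding host, at a median signal of 180. With the complete joint list they were 52, 74, 223 and 10, and 6 noncoding hosts, at a median signal of 70.5. The lists are shorter and longer by construction. The median signal was 89.1 at 250 bp. It was 43.7 and 54.3 in the lists of replicate 3 and replicate 2 alone, whose scores run lower than joint scores. Leaving out a replicate gave 7 to 9 snoRNA starts, 128 snoRNA genes by host, 5 snoRNP genes, 15 to 19 ribosomal protein hosts and 3 to 4 noncoding hosts. Requiring that no other gene's TSS be nearer the summit, chosen after seeing the data, left 36 hosts. That rule left 16 ribosomal protein hosts, 2 noncoding hosts, 130 snoRNA genes by host and 4 snoRNP genes. No paired analysis was possible because there is 1 group. The unknown read depth limits what the absence of a region can show.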
